A study of Rattus norvegicus with 12 samples.

Results

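Collagen chain genes were compared between adherent F111 A16 cells and colony derived F111 cells. The members were the genes whose symbol in the array annotation starts with Col followed by a type number, the letter a and a chain number. They came to 58 probe sets of 41 genes, out of 31042 probe sets tested and 14217 genes with a symbol of their own. Of the 41 genes, 27 had 1 probe set and 14 had several, and a gene with several was represented by its brightest probe set. A gene was called lower or higher in Colony cells where the adjusted p of limma was under 0.05 and the fold change was over 2.

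Collagens are secreted proteins built of alpha chains, each the product of its own gene, which wind around each other into a helical trimer. The type number names the trimer and the chain number its subunit, so that collagen I is commonly assembled from the chains of Col1a1 and Col1a2. Fibrillar collagens form the banded fibrils of connective tissue, collagen IV forms the sheet of basement membranes, collagen VI forms beaded microfibrils close to the cell, and fibril associated collagens with interrupted helices (FACIT) decorate fibrils. Fibroblasts are the main source of fibrillar collagen, and loss of collagen output has long been described in transformed fibroblasts.

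F111 is an established fibroblast line from the rat kept in long term culture, so neither group is a primary fibroblast. A16 cells had been plated on plastic for 16 h, and these cells were the reference. Colony cells came from F111 cells held in suspension for 16 h without adhesion (NA16 cells) and then grown for 7 days in soft agar, a gel in which cells grow without a surface to hold. Per the study's methods the agar was broken up and the cells that attached to a dish within hours were used. Both groups were kept in Dulbecco's modified Eagle medium with fetal calf serum. Each group had 3 arrays: biological replicate 1, biological replicate 2 and a technical replicate 2. The labels do not name the culture of technical replicate 2. It was assumed to be biological replicate 1 and averaged with it, giving n = 2 cultures per group. The SD of its log2 difference over probe sets was 0.17 from replicate 1 and 0.30 from replicate 2 in A16 cells. In Colony cells it was 0.22 and 0.24. The p-values measure the spread between these cultures, which limma partly shares over all probe sets, and no wider variation. The labels do not say how the cultures were set up. The paper reports that all colony derived cells carried a chromosome translocation found in a minority of A16 cells. Adhesion, the passage through suspension, growth in agar, time since plating and the make-up of the cell population differ together between the groups. They cannot be told apart. The source label of Colony biological replicate 2 names tumour formation while its other labels name colonies, and it was kept as Colony, with values also given without it.

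The median RMA intensity of an array ran from 97.6 to 101 over the 6 arrays, so the arrays were scaled alike. RMA intensity is the brightness of a probe set after background correction and normalisation over arrays, and it is given here on a linear scale. Levels of different probe sets are not comparable, since each binds its target with its own strength, so changes of a probe set between the groups were compared. The exception is the sums over marker genes given below, in which the brightest probe sets weigh most. In these bulk RNA samples fewer cells of a type and less RNA per cell cannot be told apart.

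Collagen genes moved in both directions. Of the 41, 11 were called lower in Colony cells (Col1a1, Col3a1, Col4a1, Col5a1, Col5a3, Col8a1, Col8a2, Col11a1, Col12a1, Col14a1 and Col18a1), while 4.75% of all genes were called lower. The genes called higher were 3, Col4a5, Col6a1 and Col6a2, while 4.36% of all genes were called higher. A further 5 genes had an adjusted p under 0.05 with a smaller fold change, all of them lower in Colony cells, where 6.04% of all genes were of that kind. On the higher side there were 0 such collagen genes, against 8.55% of all genes. The other 22 collagen genes had an adjusted p of 0.05 or more. The median log2 fold change, taken as Colony minus A16, was 0.005 over the 41 genes and 0.05 over all genes, and the called genes lay at both ends of the family.

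**Figure D1:**
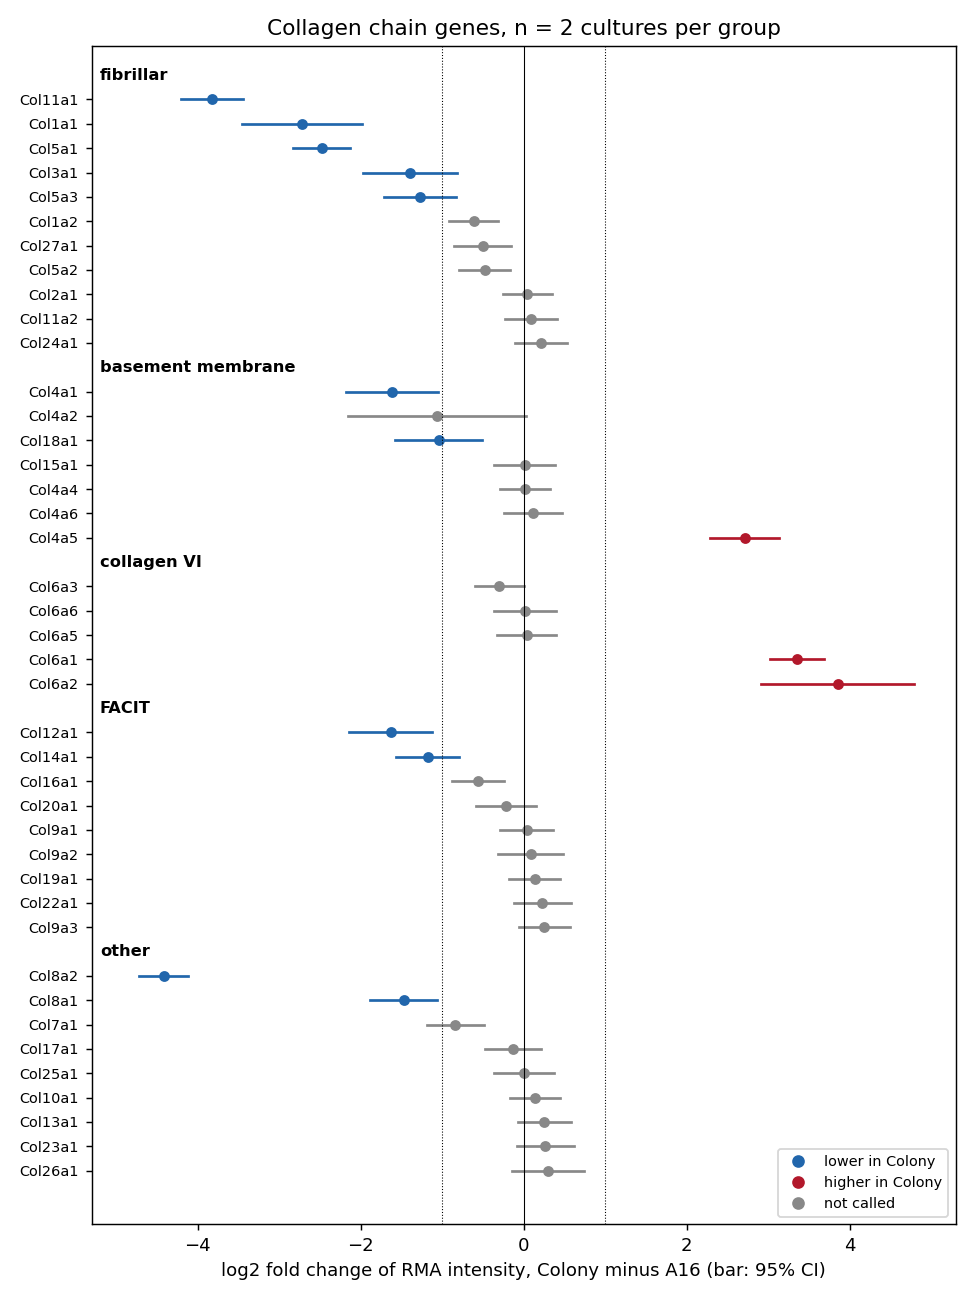
Log2 fold change of RMA intensity (Colony minus A16, horizontal axis) of each of the 41 collagen genes, grouped by class, with a 95% confidence interval from limma as a bar and n = 2 cultures per group; dotted lines mark a 2-fold change. The points run from -4.41 (Col8a2) to 3.85 (Col6a2), and the 3 points to the right of the upper dotted line are Col4a5, Col6a1 and Col6a2.

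The fibrillar class carried the most called genes, with 5 of 11 lower and 0 higher (all genes 4.75% and 4.36%). Its median log2 fold change was -0.61. In collagen classes this small a count of 0 or 1 is not set apart from those shares. Col11a1 encodes a minor fibrillar chain that sits inside fibrils and is best known from cartilage. It read 647, 690 and 632 on the A16 arrays (biological replicate 1, technical replicate 2 and biological replicate 2, the order used throughout) and 71.8, 37.7 and 40.5 on the Colony arrays. Every Colony array was far below every A16 array. The log2 fold change was -3.82 (SE 0.16, adjusted p = 2.8e-05), a 14.1-fold lower level in Colony cells. Its partner Col11a2 read 99.5, 87.4 and 102 in A16 cells and 110, 105 and 99.9 in Colony cells, with overlapping arrays and a log2 fold change of 0.09 (SE 0.13, 95% confidence interval -0.23 to 0.41).

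For collagen I, the main fibril protein of skin, tendon and bone, the brightest probe sets of its chain genes gave changes of different size. Col1a1 read 14535, 15448 and 22396 in A16 cells and 4294, 3254 and 2071 in Colony cells. The groups were well apart, although biological replicate 2 was the highest A16 array and the lowest Colony array. The log2 fold change was -2.72 (SE 0.31, adjusted p = 0.00136), which is 6.58-fold lower. Col1a2, which encodes the partner chain, read 16044, 15489 and 16206 in A16 cells and 9935, 11225 and 10330 in Colony cells. All Colony arrays were lower than all A16 arrays, but the fold change of 1.53 (log2 -0.61, SE 0.13, adjusted p = 0.0142) did not pass 2-fold and the gene was not called. The other probe set of Col1a2, with the lower mean over the 6 arrays, passed narrowly, at a log2 fold change of -1.01 (adjusted p = 0.00505).

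Collagen III accompanies collagen I in soft tissues and is a homotrimer of the Col3a1 chain. Col3a1 read 2687, 3434 and 4957 in A16 cells and 1667, 1582 and 1333 in Colony cells, again with no overlap. It was 2.64-fold lower in Colony cells (log2 -1.40, SE 0.24, adjusted p = 0.00744). Its neighbour on chromosome 9 is Col5a2, with no gene between them in the RefSeq annotation of assembly GRCr8.

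Collagen V is a minor fibrillar collagen that nucleates collagen I fibrils and limits their width. With the brightest probe set of each gene its 3 chains changed by different amounts. Col5a1 read 4921, 6484 and 6245 in A16 cells and 1248, 1073 and 985 in Colony cells, a 5.56-fold lower level (log2 -2.48, SE 0.15, adjusted p = 9.22e-05). Col5a3 read 483, 546 and 702 against 271, 266 and 231, a 2.41-fold lower level (log2 -1.27, SE 0.18, adjusted p = 0.00376). For both chains each Colony array was below each A16 array. Col5a2 read 11198, 11404 and 11711 against 7541, 8321 and 8609, and its fold change of 1.39 (log2 -0.48, adjusted p = 0.0402) did not pass 2-fold.

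Of the other fibrillar genes, Col27a1 had a log2 fold change of -0.50 (adjusted p = 0.0493) and was not called. Col2a1, the main collagen of cartilage, Col24a1 and Col11a2 had adjusted p of 0.05 or more, and Col2a1 read between 32.2 and 37.7 on the 6 arrays. The lower fibrillar genes were thus chains of collagens I, III, V and XI, and Col2a1 was not among them. The Col2a1 probe set was under the array median on every array, so a fall may not have been measurable.

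**Figure D2:**
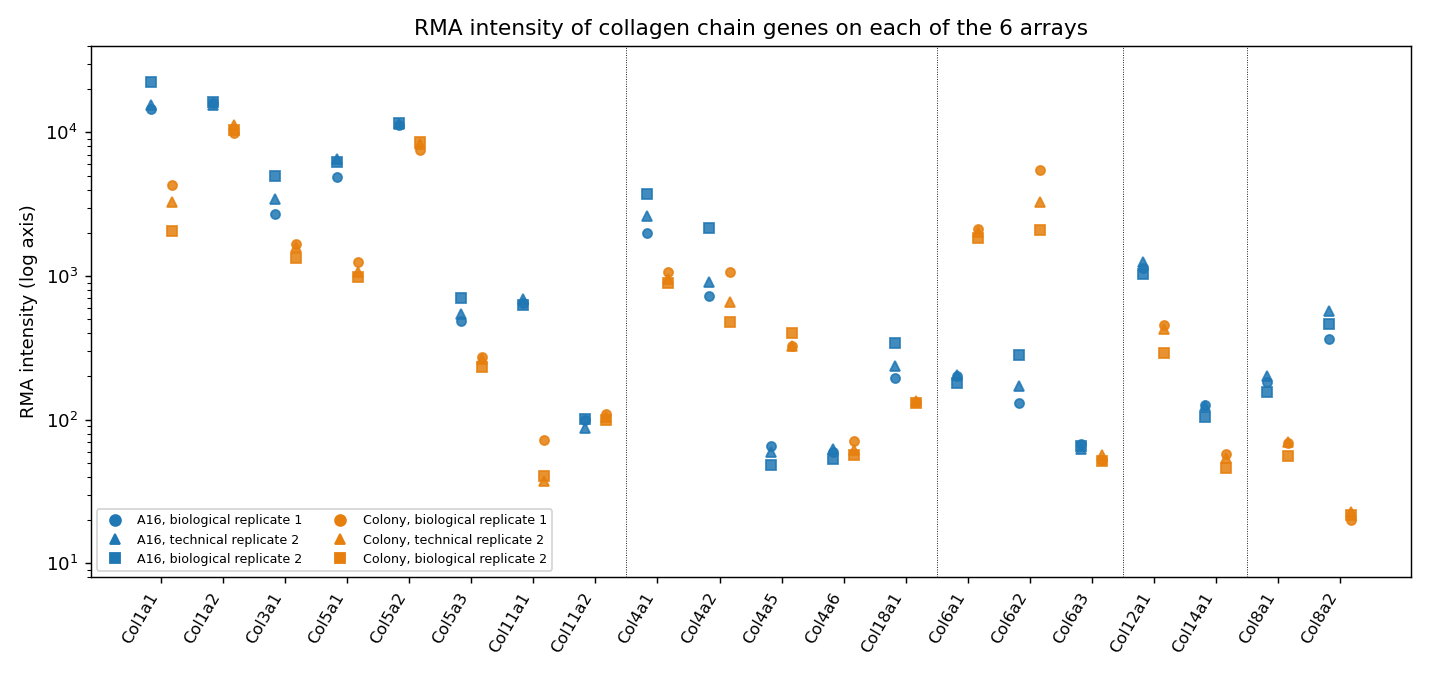
RMA intensity (log axis) of 20 collagen genes on each of the 6 arrays, A16 in blue and Colony in orange, with the marker shape giving the replicate and dotted lines separating fibrillar, basement membrane, collagen VI, FACIT and other genes. Col4a5, Col6a1 and Col6a2 have all Colony arrays above the A16 arrays, Col4a2 has arrays of both groups interleaved, and heights of different genes are not comparable.

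Basement membrane genes went both ways, with 2 of 7 lower and 1 higher (all genes 4.75% and 4.36%). Their median log2 fold change was 0.01. Col4a1 and Col4a2 encode the chains of the common collagen IV trimer and lie head to head on chromosome 16, read from opposite strands. Their starts are 77 bases apart, and the promoter windows (250 bases before to 50 after each start, RefSeq, GRCr8) share 176 bases. The windows are shown because the genes share this sequence and only Col4a1 was called. Col4a1 is chr16:84885347-84885646 on the plus strand and Col4a2 is chr16:84885471-84885770 on the minus strand. Capitals mark matches on either strand to CCAAT (the CCAAT box), TATAAA (the TATA box), GGGCGG (the GC box) and TGANTCA (the AP-1 site).
Col4a1: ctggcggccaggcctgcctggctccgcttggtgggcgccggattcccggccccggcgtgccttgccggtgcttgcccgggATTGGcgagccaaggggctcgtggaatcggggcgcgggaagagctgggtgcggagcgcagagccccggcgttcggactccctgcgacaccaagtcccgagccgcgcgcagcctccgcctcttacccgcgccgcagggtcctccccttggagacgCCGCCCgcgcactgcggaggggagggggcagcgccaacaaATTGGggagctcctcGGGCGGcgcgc
Col4a2: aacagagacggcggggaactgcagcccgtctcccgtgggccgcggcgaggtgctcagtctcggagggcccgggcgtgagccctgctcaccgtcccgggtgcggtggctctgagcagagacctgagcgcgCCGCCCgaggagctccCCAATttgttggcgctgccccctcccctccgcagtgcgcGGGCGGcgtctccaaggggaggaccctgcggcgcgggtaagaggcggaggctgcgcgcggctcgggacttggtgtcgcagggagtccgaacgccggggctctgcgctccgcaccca

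Each of these windows holds 2 GC boxes, which lie in the shared bases and are the same 2 sites read from opposite strands. Col4a1 holds 2 CCAAT boxes where Col4a2 holds 1, and the Col4a2 match is also a shared site. Col4a1 read 1994, 2599 and 3733 in A16 cells and 1073, 956 and 890 in Colony cells, so that all Colony arrays were lower. It was 3.07-fold lower (log2 -1.62, SE 0.24, adjusted p = 0.00381). Col4a2 read 726, 912 and 2168 in A16 cells and 1071, 657 and 483 in Colony cells. The groups overlapped, because Colony biological replicate 1 was above the A16 arrays of biological replicate 1 and technical replicate 2. The log2 fold change of Col4a2 was -1.06 (SE 0.46, 95% confidence interval -2.15 to 0.03, adjusted p = 0.158), so neither a fall of the size of Col4a1 nor no change lay outside the interval. Without A16 biological replicate 1 it was called lower (log2 -1.77, adjusted p = 0.00211), and without A16 biological replicate 2 it was -0.35, with the adjusted p between 0.00211 and 0.558 over all alternatives.

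Col4a5 and Col4a6 encode minor collagen IV chains found in the basement membranes of kidney and smooth muscle, and they too are read from opposite strands, on chromosome X. Their starts are 1415 bases apart and their promoter windows share 0 bases. The windows are shown beside the collagen IV pair above because in this pair 1 gene was higher and its partner was not called. Col4a5 is chrX:109907109-109907408 on the plus strand and Col4a6 is chrX:109905895-109906194 on the minus strand.
Col4a5: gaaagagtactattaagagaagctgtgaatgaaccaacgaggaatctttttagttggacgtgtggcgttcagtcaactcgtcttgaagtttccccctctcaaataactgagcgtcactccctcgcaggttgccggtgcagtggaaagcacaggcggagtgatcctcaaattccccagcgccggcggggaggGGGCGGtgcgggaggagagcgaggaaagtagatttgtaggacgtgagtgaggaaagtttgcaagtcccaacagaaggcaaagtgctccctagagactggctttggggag
Col4a6: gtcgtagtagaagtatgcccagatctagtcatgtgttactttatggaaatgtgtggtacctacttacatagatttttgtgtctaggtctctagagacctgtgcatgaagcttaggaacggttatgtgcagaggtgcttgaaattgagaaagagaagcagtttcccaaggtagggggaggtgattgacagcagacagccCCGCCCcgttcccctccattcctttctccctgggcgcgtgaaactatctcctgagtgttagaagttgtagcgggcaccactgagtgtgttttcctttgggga

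Each of these windows holds 1 GC box and no match to the other motifs. Col4a5 read 65.6, 59.5 and 48.8 in A16 cells and 327, 326 and 401 in Colony cells. The Colony arrays were all several times brighter, and the level was 6.55-fold higher (log2 2.71, SE 0.18, adjusted p = 1.42e-04). Col4a6 read 59.4, 62.3 and 52.9 against 70.8, 61.8 and 57.2, with overlapping arrays (log2 0.12, SE 0.15, 95% confidence interval -0.24 to 0.47, adjusted p = 0.652).

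Col18a1 encodes a multiplexin of basement membranes whose end fragment is endostatin. It read 194, 238 and 344 in A16 cells and 132, 135 and 131 in Colony cells, and the Colony arrays were lower and close together. It was 2.06-fold lower (log2 -1.04, SE 0.22, adjusted p = 0.0169). The call was narrow, and it was lost in 8 of 15 alternatives, with log2 fold changes between -0.70 and -1.83, adjusted p between 6.42e-04 and 0.0598 and the same direction in all 15. The other multiplexin, Col15a1, and Col4a4 had log2 fold changes of 0.01 and 0.02 with overlapping arrays, and their sign changed between alternatives.

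Collagen VI was the class with the most genes called higher, 2 of 5 (all genes 4.36%), and 0 were lower (all genes 4.75%). Its common trimer is assembled from the chains of Col6a1, Col6a2 and Col6a3, and it anchors cells to the matrix around them. Col6a1 and Col6a2 lie side by side on chromosome 20, with 2 non-coding genes between them that were not measured here. The promoter window of Col6a1 is chr20:11905440-11905739 on the plus strand (RefSeq, GRCr8), shown because it alone of the 32 collagen promoters held the AP-1 letters.
Col6a1: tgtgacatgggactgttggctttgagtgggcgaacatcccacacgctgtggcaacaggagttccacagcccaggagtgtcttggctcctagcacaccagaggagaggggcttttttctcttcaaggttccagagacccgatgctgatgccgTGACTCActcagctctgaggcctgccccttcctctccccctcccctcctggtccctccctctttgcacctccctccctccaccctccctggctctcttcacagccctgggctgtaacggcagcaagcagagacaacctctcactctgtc

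Col6a1 read 201, 204 and 181 in A16 cells and 2120, 2020 and 1854 in Colony cells. The arrays within each group lay close together, and Colony cells were 10.2-fold higher (log2 3.36, SE 0.14, adjusted p = 2.73e-05). Col6a2 read 130, 172 and 284 in A16 cells and 5452, 3293 and 2095 in Colony cells. Its arrays were more scattered, with biological replicate 2 the highest of the A16 arrays and the lowest of the Colony arrays, but the groups stayed far apart. The rise was 14.5-fold (log2 3.85, SE 0.39, adjusted p = 9.27e-04).

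For Col6a3, the remaining chain of the trimer, no change was called. It read 68.2, 62.5 and 65.3 in A16 cells and 52.2, 56.6 and 51.9 in Colony cells, with a log2 fold change of -0.30 (SE 0.13, 95% confidence interval -0.60 to 0.00, adjusted p = 0.15). A second probe set of Col6a3 had a log2 fold change of -0.08. Both Col6a3 probe sets were under the array median on all 6 arrays, and whether they measured the transcript above background was not tested. Col6a5 and Col6a6, which encode chains resembling that of Col6a3, had log2 fold changes of 0.04 and 0.02, whose sign also changed between alternatives. Along chromosome 20 the measured genes between Col18a1, which was lower, and Col6a1, which was higher, were Slc19a1 (log2 -0.03, adjusted p = 0.938) and Pcbp3 (log2 0.48, adjusted p = 0.06), and neither was called.

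Of the FACIT genes 2 of 9 were lower and 0 were higher (all genes 4.75% and 4.36%), with a median log2 fold change of 0.04. Col12a1 encodes a chain that coats collagen I fibrils in tissues under load. It read 1130, 1249 and 1035 in A16 cells and 460, 425 and 290 in Colony cells, a clear separation, and was 3.10-fold lower (log2 -1.63, SE 0.21, adjusted p = 0.00253). Col14a1, a related fibril surface chain, read 126, 125 and 105 against 57.7, 54.0 and 46.1, and was 2.26-fold lower (log2 -1.18, SE 0.16, adjusted p = 0.0031). Col16a1 read 1872, 1725 and 1826 against 1311, 1293 and 1155, and its log2 fold change of -0.56 (adjusted p = 0.0247) was short of 2-fold. The chains of collagen IX (Col9a1, Col9a2 and Col9a3), a cartilage collagen, and Col19a1, Col20a1 and Col22a1 had adjusted p of 0.229 or more.

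Among the other collagens the network forming collagen VIII stood out, with both measured chains lower. Col8a2 read 365, 573 and 466 in A16 cells and 20.1, 22.9 and 21.8 in Colony cells. With RMA and the brightest probe set of each gene the fall was the largest of the 41 genes. The log2 fold change was -4.41 (SE 0.13, adjusted p = 1.13e-05) or 21.3-fold. In Colony cells this probe set was at the 5.15 percentile of all probe sets, near the floor of the array. Also with RMA, another probe set of Col11a1 fell further, at -4.47 on the log2 scale. With PLIER, the other summary of the same arrays, and 16 added to each value, Col8a2 fell 10.6-fold and Col11a1 17.8-fold. The size and the rank of the Col8a2 fall are thus uncertain, while the direction was the same. The promoter window of Col8a2 is chr5:143870519-143870818 on the plus strand (RefSeq, GRCr8). It is shown as that of the gene with the largest fall with RMA and the brightest probe sets. It holds 5 GC boxes, of which a pair overlap each other.
Col8a2: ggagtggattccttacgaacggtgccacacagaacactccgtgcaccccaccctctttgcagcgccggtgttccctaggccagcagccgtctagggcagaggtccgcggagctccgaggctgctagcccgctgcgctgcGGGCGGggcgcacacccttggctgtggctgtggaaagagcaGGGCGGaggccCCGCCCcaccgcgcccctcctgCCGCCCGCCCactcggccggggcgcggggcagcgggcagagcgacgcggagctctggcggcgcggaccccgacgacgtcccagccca

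Col8a1 read 182, 203 and 156 in A16 cells and 69.1, 70.5 and 55.9 in Colony cells, with no overlap, and was 2.77-fold lower (log2 -1.47, SE 0.17, adjusted p = 0.0016). Col7a1, which forms the anchoring fibrils under epithelia, read 201, 227 and 189 against 95.5, 114 and 121, and its 1.79-fold lower level (log2 -0.84, adjusted p = 0.00788) was short of the call. The transmembrane collagens Col13a1, Col17a1, Col23a1 and Col25a1, with Col10a1 and Col26a1, had adjusted p of 0.252 or more. With PLIER and 16 added, Col13a1 was at a log2 fold change of 0.82 (limma adjusted p = 0.0216), short of 2-fold. Its probe set was at the 3.19 percentile in A16 cells.

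The 22 collagen genes with an adjusted p of 0.05 or more were mostly dim. On every array 20 of the 22 lay under that array's median intensity, and their RMA intensity ran from 16.0 to 2168 over all 22. Their log2 fold changes ran from -1.06 (Col4a2) to 0.30 (Col26a1). With Col4a2 left aside, their 95% confidence intervals lay between -0.60 and 0.74. A probe set this dim may measure background more than its transcript, and whether these genes were expressed was not tested.

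Chains of the same collagen type were compared by the difference of their log2 fold changes, in 11 pairs. Col1a1 fell by 2.11 more than Col1a2 on the log2 scale, where the difference between the chains varied by 0.54 between the A16 cultures and by 0.82 between the Colony cultures. The differences were -2.00 for Col5a1 against Col5a2, -1.21 for Col5a1 against Col5a3, -0.79 for Col5a3 against Col5a2, -3.91 for Col11a1 against Col11a2 and -2.94 for Col8a2 against Col8a1. They were 2.60 for Col4a5 against Col4a6, 3.66 for Col6a1 against Col6a3 and 4.15 for Col6a2 against Col6a3. In those 3 pairs the partner (Col4a6 or Col6a3) was under the array median on all arrays, so the difference may be against background. In the 9 pairs given so far the cultures of the groups did not overlap, and the exact two-sided permutation test over the 4 cultures gave p = 0.333, the smallest it can give (adjusted p = 0.407 over the 11 pairs). For Col4a1 against Col4a2 (-0.56) and Col6a1 against Col6a2 (-0.50) the exact permutation p was 0.667, and the cultures overlapped. The test cannot pass 0.05 with so few cultures, so the differences are given as sizes beside the culture spread. The Col1a2 and Col5a2 probe sets were among the brightest on the array, at percentiles 99.8 and 99.5 in A16 cells, and whether their change was compressed at the bright end was not tested. With the other probe set of each gene the log2 fold changes were -2.73 for Col1a1 and -1.01 for Col1a2, a smaller gap. For collagen V the other probe sets gave -1.38 for Col5a1 and -0.28 for Col5a2, also a smaller gap. That Col5a1 value is close to the -1.27 of Col5a3, which had 1 probe set.

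Of the 58 collagen probe sets, 18 were called lower and 4 higher, where 5.81% and 4% of all probe sets were. The genes with several probe sets mostly agreed in direction. Col1a1 agreed closely, at -2.72 and -2.73 on the log2 scale. Col5a1 had -2.48 and -1.38 (adjusted p = 0.00632 for the second), and Col4a1 had -1.62 and -2.03 (adjusted p = 3.06e-04). All 3 probe sets of Col12a1 were called lower, at -1.63, -1.12 and -1.87.

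A few probe sets of the same gene differed in their call. For Col11a1 a second set read 446, 378 and 281 against 14.9, 16.7 and 14.9 (log2 -4.47, adjusted p = 3.14e-05), while a further, dim set read 18.9, 17.7 and 25.4 against 16.7, 16.4 and 14.9 and was not called (log2 -0.46, adjusted p = 0.133). For Col6a2 a second set read 81.8, 65.4 and 67.4 against 187, 181 and 174, a rise of 1.35 on the log2 scale (adjusted p = 7.53e-04) where the brightest set rose by 3.85, so the direction was shared and the size was not. The second set of Col14a1 was not called (log2 -0.22, adjusted p = 0.286), and with the mean of both sets Col14a1 was at -0.70 and no longer called. The second set of Col18a1 had a log2 fold change of -0.70 (adjusted p = 0.0162), short of 2-fold. Which transcript or exon each probe set binds was not given in the sources used here.

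**Figure D3:**
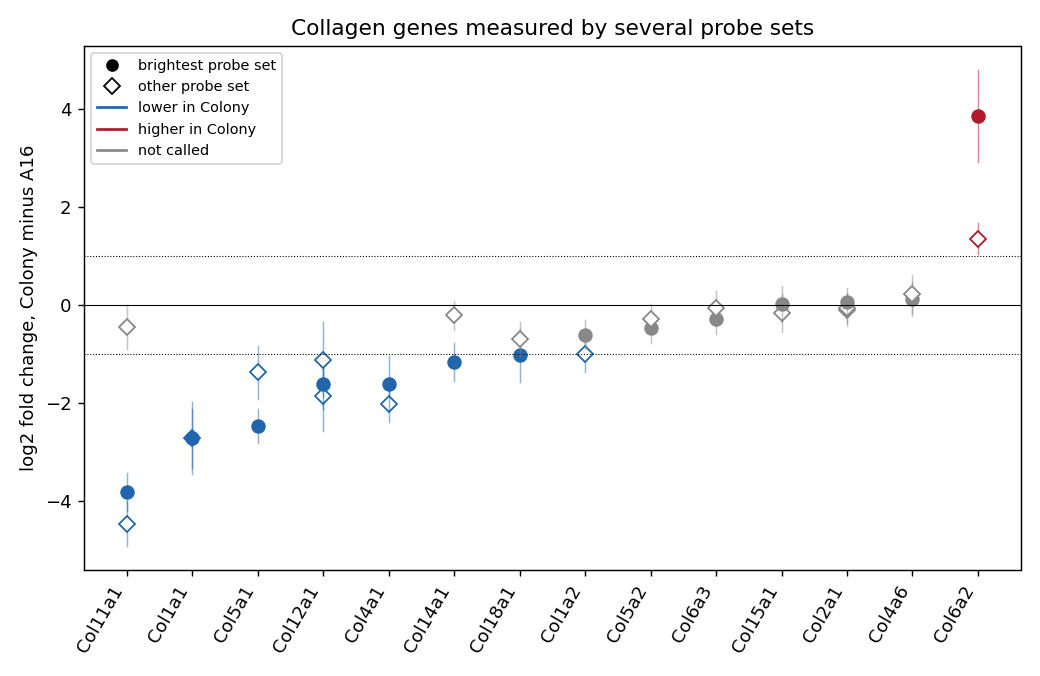
Log2 fold change of RMA intensity (Colony minus A16, vertical axis) of every probe set of the 14 collagen genes with several, with 95% confidence intervals as bars, filled circles for the brightest set, open diamonds for the others and dotted lines at a 2-fold change. Col11a1 has sets at -4.47, -3.82 and -0.46, and both sets of Col6a2 lie above the upper line, at 3.85 and 1.35.

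The promoter windows of 32 of the 41 genes were at hand from RefSeq, and those of Col1a1, Col3a1, Col6a2, Col12a1 and Col14a1 were not among them. The GC box was in 18 of the 32 collagen windows (56.2%) and in 33.1% of all 33469 windows of the same length. It was in all 7 windows of genes called lower (Col4a1, Col5a1, Col5a3, Col8a1, Col8a2, Col11a1 and Col18a1) and in 1 of 2 windows of genes called higher. The CCAAT box was in 9 of 32 (28.1%, all windows 37.5%), the TATA box in 4 of 32 (12.5%, all windows 14.2%) and the AP-1 letters in 1 of 32 (3.12%, all windows 7.33%). No match to one motif overlapped a match to another in the printed windows. A match of letters is a description of these windows.

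The genes that make, join and cut collagen were taken from a list, of which 35 of 46 were measured, and 8 were called lower and 2 higher, where 4.75% and 4.36% of all genes were. The share called higher was thus near that of all genes. In the list of intracellular enzymes and chaperones 5 of 19 were lower (all genes 4.75%) and 0 higher, with a median log2 fold change of -0.42. Serpinh1 encodes Hsp47, the chaperone of procollagen in the endoplasmic reticulum. It read 7660, 7597 and 10691 in A16 cells and 2624, 2523 and 2047 in Colony cells, with all Colony arrays lower, and was 3.93-fold lower (log2 -1.98, SE 0.20, adjusted p = 9.45e-04). P4ha1, P4ha2 and P4ha3 encode the catalytic subunits of prolyl 4-hydroxylase, which stabilises the collagen helix. All of them were lower, at log2 fold changes of -1.19 (adjusted p = 0.0023), -1.25 (adjusted p = 0.00138) and -1.13 (adjusted p = 0.00175), and with PLIER P4ha2 was at -0.98, just short of 2-fold.

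Fkbp14, a prolyl isomerase that acts on procollagen, was lower by 1.04 on the log2 scale (adjusted p = 0.00467), and without A16 biological replicate 1 it was at -0.88. P4hb, the partner subunit of prolyl 4-hydroxylase, had a log2 fold change of -0.22 (adjusted p = 0.297). The lysyl hydroxylases Plod1, Plod2 and Plod3 had log2 fold changes of -0.01, 0.14 and 0.07 and were not called. P3h1 and P3h3, prolyl 3-hydroxylases, were at -0.73 (adjusted p = 0.0132) and -0.60 (adjusted p = 0.0373), short of 2-fold. The decrease was called in the prolyl 4-hydroxylase catalytic subunits and Serpinh1 and not in the lysyl hydroxylases.

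Cross-linking enzymes of the lysyl oxidase family, which join collagen chains outside the cell, went in both directions, with 2 of 4 lower and 1 higher (all genes 4.75% and 4.36%). Lox read 10588, 10290 and 11113 in A16 cells and 2086, 2325 and 2586 in Colony cells, a wide and tight separation, and was 4.51-fold lower (log2 -2.17, SE 0.14, adjusted p = 1.41e-04). Loxl2 was 3.58-fold lower (log2 -1.84, SE 0.24, adjusted p = 0.00253). Loxl1, best known from elastic fibres, read 2743, 2868 and 2233 against 5628, 5326 and 4803 and was 2.05-fold higher (log2 1.03, SE 0.16, adjusted p = 0.00509), but short of 2-fold at 0.87 without A16 biological replicate 2 and at 0.94 without Colony biological replicate 1. Loxl3 was at 0.67 (adjusted p = 0.0286), short of 2-fold.

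Among collagenases and gelatinases, 1 of 5 was lower and 1 higher, too few to set against the 4.75% and 4.36% of all genes. Mmp13, an interstitial collagenase that cleaves fibrillar collagen, read 604, 615 and 544 in A16 cells and 2395, 2438 and 2526 in Colony cells. It was 4.29-fold higher (log2 2.10, SE 0.13, adjusted p = 1.27e-04). Mmp14, the membrane bound collagenase, moved the other way, from 3237, 3791 and 3615 to 725, 726 and 905, and was 4.39-fold lower (log2 -2.13, SE 0.15, adjusted p = 1.99e-04). The gelatinases Mmp2 (log2 0.79, adjusted p = 0.0126) and Mmp9 (log2 0.87, adjusted p = 0.0127) were short of 2-fold, and Mmp8 was at -0.01.

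Receptors for collagen and the proteins that remove its propeptides held 0 genes called by limma, of 5 and 2 measured. These are too few to set against the 4.75% and 4.36% of all genes called lower and higher. In each list 1 gene had an unadjusted p under 0.05. Of the receptors, Ddr1, a receptor tyrosine kinase that binds collagen, was at a log2 fold change of -0.92 (adjusted p = 0.00747). Ddr2 was at 0.12, the integrin chains Itgb1 at 0.25, Itga1 at -0.44 and Itga11 at -0.01. The propeptide protease Bmp1 was at -0.93 (adjusted p = 0.0953) and its enhancer Pcolce at 0.06 (adjusted p = 0.868).

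**Figure D4:**
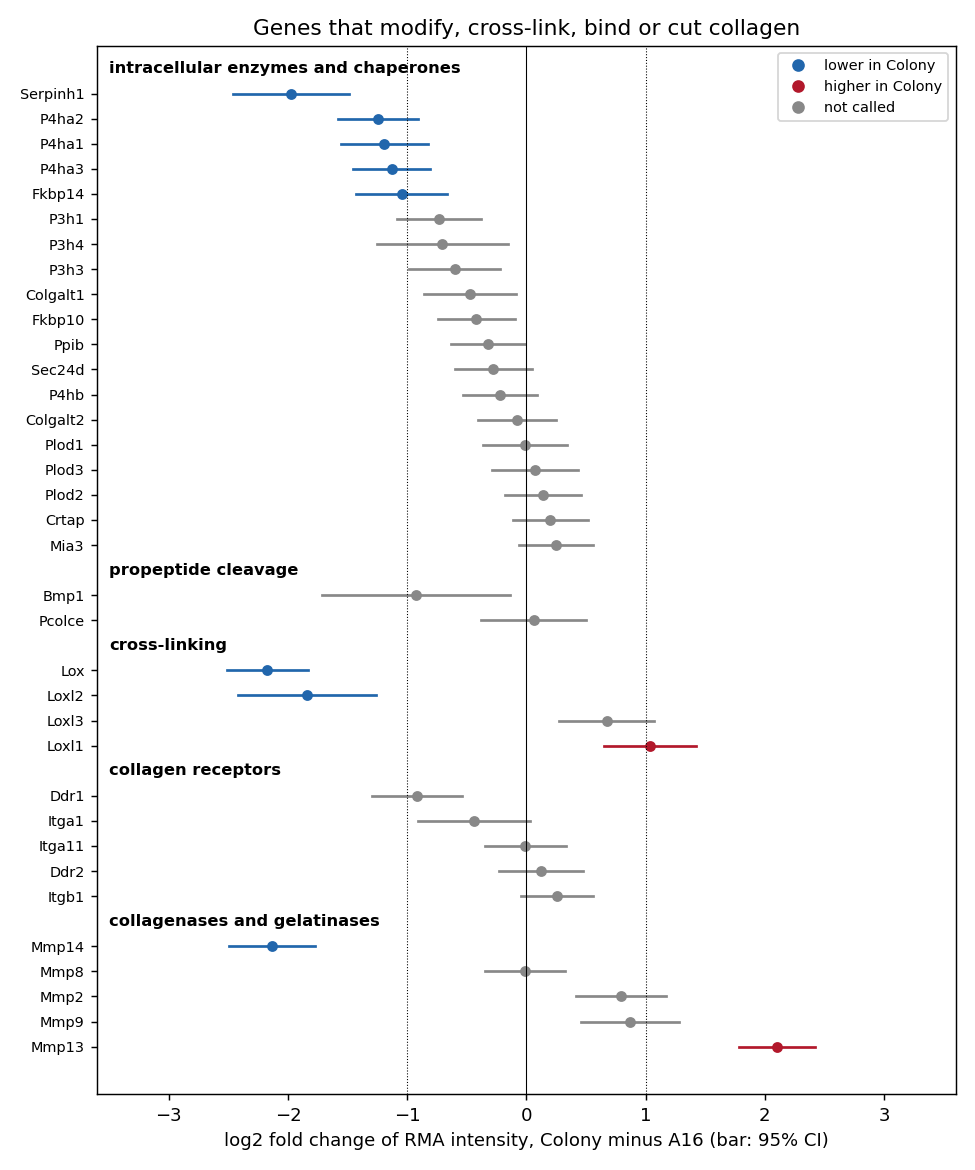
Log2 fold change of RMA intensity (Colony minus A16, horizontal axis) of the 35 measured genes that modify, cleave, cross-link, bind or cut collagen, by list, with 95% confidence intervals from limma as bars and dotted lines at a 2-fold change. Serpinh1, Lox, Loxl2 and Mmp14 lie furthest left, at -1.98, -2.17, -1.84 and -2.13, and Mmp13 lies furthest right, at 2.10.

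The labelled cell type was checked against markers of fibroblasts and of other cells that make collagen. Every marker list, here and below, was too short to set its count against the 4.75% and 4.36% of all genes called lower and higher. Of 10 fibroblast markers 1 was lower (Thy1, log2 -1.31, adjusted p = 0.00595) and 0 were higher, and their summed RMA intensity ran from 52943 to 53711 in A16 cells and from 54808 to 55729 in Colony cells. Vim and S100a4 were bright on all arrays, while Dcn read between 23.6 and 28.1 and Lum between 20.7 and 39.5, near the floor, so these defining matrix markers of fibroblasts were at or near the floor in both groups. None of 5 cartilage, 4 bone or 5 endothelial markers was called by limma. Of the cartilage markers, 2 were lower at a limma adjusted p under 0.05 with a fold change of 2 or less. Of the bone and of the endothelial markers, 1 each had an unadjusted p under 0.05, with an adjusted p of 0.05 or more. The summed cartilage markers ran from 513 to 589 in A16 cells and from 418 to 449 in Colony cells, lower in the group where Col11a1 was lower, and their part in that result was not tested.

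Of 6 epithelial markers 1 was higher, Krt8 (log2 2.13, adjusted p = 2.67e-04), and the sum ran from 909 to 1014 in A16 cells and from 3154 to 3913 in Colony cells. Epcam (21.9 to 26.4) and Krt18 (28.7 to 37.2) were dim in both groups. Of 6 leukocyte markers 1 was higher, Csf1r (log2 4.01, adjusted p = 4.15e-05), with the sum between 1129 and 1284 in A16 cells and between 1474 and 1585 in Colony cells, and Ptprc stayed dim (34.7 to 42.2). Another leukocyte marker was lower, and another epithelial marker higher, at a limma adjusted p under 0.05 with a fold change of 2 or less. The median log2 fold change was 0.05 over the epithelial and 0.12 over the leukocyte markers. Krt8, Csf1r and both sums moved in the same direction as Col4a5, Col6a1 and Col6a2, and their part in those results was not tested.

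Colony biological replicate 2, the array whose labels disagree, was the lowest Colony array in 9 of the 11 lower collagen genes (81.8%), and in 42.8% of all genes called lower. Without it 10 collagen genes were called lower and 3 higher, and Col18a1 (adjusted p = 0.0598) was the gene that lost its call. The log2 fold changes without it were -2.29 for Col1a1, -1.26 for Col3a1, -1.52 for Col4a1, -2.36 for Col5a1, -1.16 for Col5a3 and -3.64 for Col11a1. They were -1.31 for Col8a1, -4.43 for Col8a2, -1.33 for Col12a1 and -1.04 for Col14a1. The genes called higher stood at 2.56 (Col4a5), 3.44 (Col6a1) and 4.36 (Col6a2). In that fit the Colony group is 1 culture, assumed to vary like the A16 cultures.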

How the data were processed

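RNA of F111 A16 and Colony cells was hybridised to Affymetrix rat arrays, 3 per group. The authors summarised each array with RMA and with PLIER in Avadis and deposited both as intensity on a linear scale (versions not given in the sources used here). The labels give no slide or scan date, so no array batch was tested, and the number of arrays, which come from 2 cultures per group, limits the precision.

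The plan assumed log2 RMA values, so log2 of the deposited RMA intensity was taken. Of 31099 probe sets, 57 controls were left out. The other 31042 entered linear models (R 4.3.3, package limma 3.58.1, functions lmFit and eBayes), with Benjamini-Hochberg adjustment over all of them and n = 2 cultures per group. The fit was tested on simulated data. Collagen members, gene lists, tests and alternatives were chosen with earlier results of these data known. Named genes were every called collagen gene, the other chains of its type, collagens I, III, IV, V and VI, and up to 6 called genes of each pathway list. Genes whose probe sets differ in call were also named, and other uncalled genes in the text, such as Col15a1 and Col7a1, were named after their values were seen. Probe sets with 1 symbol in the array annotation (20826) named 14217 genes, with symbols brought up to date through RefSeq assembly GRCr8. Alternatives covered the summary (PLIER, 16 added), technical arrays, scaling, dim probe sets, averaging of probe sets, each replicate left out and the methods' t-test. Figures were drawn with matplotlib 3.10.9 in Python 3.11.15. NA16 and tumour arrays were not used here.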

Additional observations from a re-analysis of the deposited data

How the results depend on the processing

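With limma the collagen genes called lower numbered 9 to 12 and those called higher 3 under every alternative that kept the fold threshold, against 11 and 3 as reported, and 16 were lower with no fold threshold (chosen after seeing the data). No called collagen gene changed direction in 15 alternatives. Of the uncalled genes followed over these alternatives, Col15a1, Col4a4, Col6a5 and Col6a6, all near 0, changed sign. The remaining uncalled genes were not followed in this way, and some differed in sign between summaries. Examples are Col9a2 (0.09 with RMA, -0.24 with PLIER and 16 added) and Col17a1 (-0.13 and 0.08). Col15a1 was at -0.32 with PLIER (-0.48 with nothing added), -0.062 with 6 separate arrays, -0.18 and -0.14 with the technical arrays moved or left out, -0.026 with the random block and -0.081 with averaged probe sets. Col4a4 was at -0.23 with PLIER (-0.37 with nothing added), -5.85e-04 with separate arrays, and -0.0098 with the technical arrays moved, and Col6a5 was at -0.14 without them. With each replicate left out Col15a1 ran from -0.15 to 0.17, Col4a4 from -0.027 to 0.063, Col6a5 from -0.12 to 0.20 and Col6a6 from -0.15 to 0.19. The calls that changed were Col18a1 (7 of 15 kept it), Col14a1 (14 of 15) and Col4a2, which was called without A16 replicate 1 and with crossed numbers. The genes of the pathway lists called numbered 9 to 13, against 10. The methods' t-test at an unadjusted p under 0.05 gave 9 lower, 3 higher and 10 of the pathway lists, and after Benjamini-Hochberg it gave 0, 0 and 0, as for all genes (573 lower and 580 higher unadjusted, 0 and 0 adjusted). The median log2 fold change of the 41 genes, 0.005 as reported, was -0.23 with PLIER, -0.14 with the technical arrays averaged with biological replicate 2, -0.14 without the technical arrays, -0.56 with dim probe sets left out, which leaves fewer genes, and between -0.15 and 0.0022 with each replicate left out. The cause of the other shifts was not tested. Replicate numbers did not pair the samples (correlation of deviations -0.15). With the replicate number as a block 11 genes were lower and 3 higher, and no call of a named collagen gene changed. With crossed numbers, chosen after seeing the data, 12 were lower and 3 higher. With 2 cultures per group the precision rests on the spread shared over all probe sets, and changes of dim probe sets may be understated.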
